A study of Homo sapiens with 9 samples.

Results

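The effect of the higher of the concentrations studied, 80 nM DIG-MSK, was examined by comparing 3 arrays of treated A2780 cells with 3 arrays of untreated A2780 cells. DIG-MSK is an analogue of mithramycin, an antibiotic with antitumour activity, and A2780 is an established cell line derived from a human ovarian carcinoma. Cells were exposed to the drug for 24 h, the untreated cells received none, and total RNA of independent cultures, 3 in each group, was labelled with a single dye and hybridised to an array of its own. Another 3 arrays, of cells given 8 nM DIG-MSK, entered the fit so that all 9 arrays shared an estimate of the spread. The level of a gene is the log2 of its processed intensity minus the 75th percentile of its array, so that 0 marks that percentile. Of 35010 genes on the array, 21860 were tested, namely those with a probe well above background on all 3 untreated arrays or on all 3 arrays of 80 nM. A gene is said to have risen (up-regulated) or fallen (down-regulated) where its fold change was at least 1.5 or at most 0.67 with a Benjamini-Hochberg adjusted p under 0.05 in limma. The untreated arrays lay on slide 1 and the 80 nM arrays on slide 2, scanned separately, so the drug and the slide cannot be told apart in any value given here. The arrays report relative levels in bulk RNA, in which fewer cells of a type and less RNA per cell cannot be told apart.

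Mithramycin and its analogues sit in the minor groove where DNA is rich in C and G and interfere with factors that read such sequences. The best known of these is Sp1, a zinc finger protein that binds the GC box found in the promoters of many housekeeping and growth-related genes, and Sp3, members of the KLF family and EGR1 bind related sequences. Genes that lie downstream of p53, of interferon or of sterol-sensing factors are controlled in addition by their own regulators, and they are described below by function.

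The promoters of genes at the head of the ranking are shown first, and these genes were chosen by rank and not by promoter sequence. They are the 3 genes that fell most and 3 of the 4 that rose most (TECRL, the third, had no window that starts at the gene's outer end), with CRABP1 and XIAP, promoters that the study examined by chromatin immunoprecipitation. Each sequence holds the 250 bases before the transcription start in RefSeq on GRCh38.p14, written in the direction of the gene, and capitals mark GC boxes (GGGCGG or, on the other strand, CCGCCC). SHISA3 (chr4:42397238-42397487, + strand) holds 2 GC boxes, PDGFRA (chr4:54229043-54229292, + strand) holds 0, and CCR1 (chr3:46208314-46208563, - strand) holds 0. CRABP1 (chr15:78340103-78340352, + strand) and XIAP (chrX:123859458-123859707, + strand) hold 1 each. Among the up-regulated genes, VCAN (chr5:83471494-83471743, + strand) holds 1, CNDP1 (chr18:74534250-74534499, + strand) holds 0 and RGCC (chr13:41457300-41457549, + strand) holds 4. The C+G share of these stretches runs from 44.8% in XIAP and 45.2% in CCR1 to 75.2% in RGCC.
SHISA3: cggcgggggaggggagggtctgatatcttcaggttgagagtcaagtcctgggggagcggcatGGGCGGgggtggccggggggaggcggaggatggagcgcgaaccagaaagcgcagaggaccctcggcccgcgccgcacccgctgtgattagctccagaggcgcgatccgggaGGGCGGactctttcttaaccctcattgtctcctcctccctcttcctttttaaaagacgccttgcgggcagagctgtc
PDGFRA: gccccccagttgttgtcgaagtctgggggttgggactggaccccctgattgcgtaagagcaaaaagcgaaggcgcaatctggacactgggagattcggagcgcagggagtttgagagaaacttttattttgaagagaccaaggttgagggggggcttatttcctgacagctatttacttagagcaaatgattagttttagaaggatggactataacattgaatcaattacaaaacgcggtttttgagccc
CCR1: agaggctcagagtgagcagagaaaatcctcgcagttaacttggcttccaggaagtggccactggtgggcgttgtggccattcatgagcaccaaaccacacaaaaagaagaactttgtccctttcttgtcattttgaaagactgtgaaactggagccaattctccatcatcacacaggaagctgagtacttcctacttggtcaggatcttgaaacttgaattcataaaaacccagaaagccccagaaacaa
CRABP1: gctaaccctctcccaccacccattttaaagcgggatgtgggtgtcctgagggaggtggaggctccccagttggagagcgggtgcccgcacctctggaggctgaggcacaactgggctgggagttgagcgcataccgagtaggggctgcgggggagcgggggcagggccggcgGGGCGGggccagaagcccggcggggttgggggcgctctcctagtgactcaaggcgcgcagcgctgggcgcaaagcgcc
XIAP: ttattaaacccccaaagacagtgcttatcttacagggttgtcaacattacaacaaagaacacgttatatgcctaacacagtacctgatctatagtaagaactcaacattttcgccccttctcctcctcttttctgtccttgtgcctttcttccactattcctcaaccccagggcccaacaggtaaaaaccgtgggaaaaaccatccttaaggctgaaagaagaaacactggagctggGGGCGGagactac
VCAN: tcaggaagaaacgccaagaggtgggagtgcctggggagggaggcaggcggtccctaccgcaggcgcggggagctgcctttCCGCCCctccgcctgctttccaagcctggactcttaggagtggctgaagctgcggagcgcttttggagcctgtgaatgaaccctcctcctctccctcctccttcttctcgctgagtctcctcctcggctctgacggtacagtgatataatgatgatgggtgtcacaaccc
CNDP1: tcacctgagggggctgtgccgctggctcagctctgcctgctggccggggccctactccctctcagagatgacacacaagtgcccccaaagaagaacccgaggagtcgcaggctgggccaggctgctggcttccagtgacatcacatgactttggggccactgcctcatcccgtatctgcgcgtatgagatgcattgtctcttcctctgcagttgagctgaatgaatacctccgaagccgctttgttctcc
RGCC: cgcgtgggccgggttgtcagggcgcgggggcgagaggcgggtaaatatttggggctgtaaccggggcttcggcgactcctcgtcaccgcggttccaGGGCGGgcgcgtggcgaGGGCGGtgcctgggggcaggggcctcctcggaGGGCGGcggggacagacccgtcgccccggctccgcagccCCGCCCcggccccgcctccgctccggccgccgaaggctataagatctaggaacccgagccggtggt

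Over all genes, 80 nM DIG-MSK was accompanied by change in both directions. Of the 21860 genes tested, 4046 rose (18.5%) and 3473 fell (15.9%), and with the unadjusted p that the study used at the same fold limits 7689 changed (35.2%). The 3 arrays of 80 nM lay all above or all below the 3 untreated arrays for 15756 genes (72.1%). Change was larger downward than upward: of the 19625 genes well above background on all 6 arrays, 182 rose and 212 fell at least 4-fold, and 5 rose and 28 fell at least 16-fold. In that set 3414 genes rose (17.4%) and 2595 fell (13.2%), and these are the shares against which the gene groups below are read. A further 563 genes were well above background on all 3 untreated arrays and on none of 80 nM, and 284 the other way. Scaling to the 10 spike-in probes in place of the 75th percentile moved the median change of all genes from 0.08 to -0.20 and the share of calls that were downward from 46.2% to 73.3%, so every direction below is relative to the bulk of the genes. Under that scaling 7.18% of the genes measured on all 6 arrays rose and 20.5% fell, and the counts of a list under spike-in scaling, taken over the same members, are read against these shares. The spike-in probes lay 1.78 to 2.21 above the 75th percentile on the untreated arrays and 2.24 to 2.33 above it at 80 nM.

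**Figure D1:**
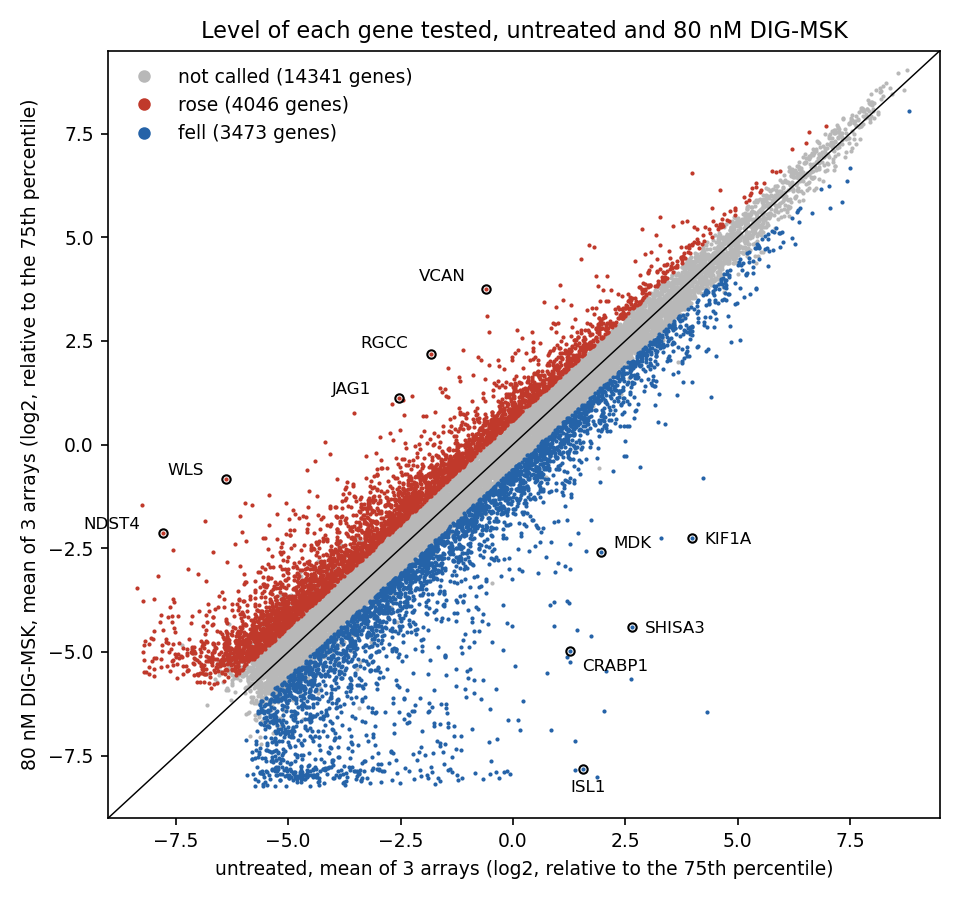
Mean log2 level of each of the 21860 genes tested in untreated cells (x axis) and at 80 nM DIG-MSK (y axis), relative to the 75th percentile of the array, each mean over 3 arrays, with genes that rose in red, genes that fell in blue and genes not called in grey. The points lie farther from the diagonal below it, as at SHISA3, CRABP1 and KIF1A, than above it.

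Among genes measured on all 6 arrays, weakly expressed ones rose more often than strongly expressed ones. When the 19625 genes were split into 5 groups of 3925 by their level on the 8 nM arrays, which enter neither side of the comparison, 26.3% of the dimmest group rose and 5.91% fell. The 8 nM arrays lay on the slide of the untreated arrays, so the level used for the split can share slide effects with the untreated side. How far such sharing shaped the pattern was not tested. In the brightest group, 7.16% rose and 12.6% fell. Genes detected in untreated cells alone (563) or at 80 nM alone (284) are outside this split. Dim genes that dropped below background are therefore not counted, which limits the share of falls in the dimmest group. The local background of the arrays was 41.0 to 48.0 intensity units on the untreated arrays and 22.0 to 30.0 at 80 nM, and its part in the rise of dim genes was not tested. Of 3240 long intergenic RNA features measured on all 6 arrays, 653 rose (20.2%) and 328 fell (10.1%), against 17.4% and 13.2% of all genes. Their median change was 0.17, or -0.11 under spike-in scaling, against 0.09 and -0.19 for all genes.

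**Figure D2:**
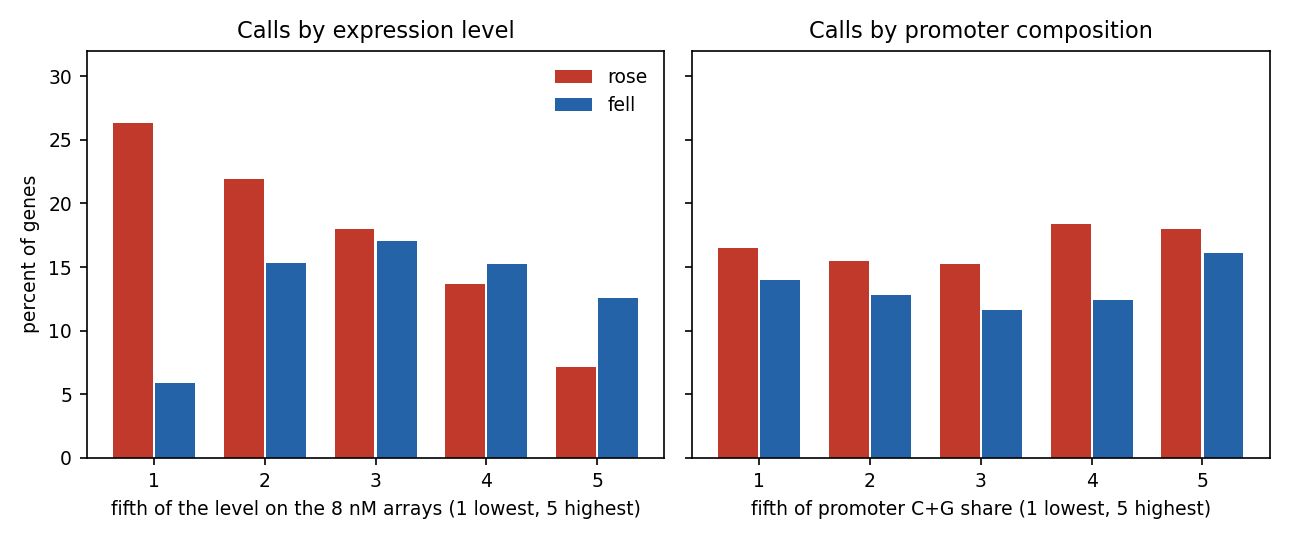
Percent of genes that rose (red) and fell (blue) at 80 nM DIG-MSK, for 5 groups by level on the 8 nM arrays (left, 3925 genes each) and 5 groups by C+G share of the promoter window (right, 2075 or 2076 genes each). The share that rose drops from 26.3% to 7.16% with level, while it stays between 15.2% and 18.4% across promoter composition.

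The share of promoters with a GC box and the C+G share were close between the genes called up or down and the other genes. A promoter window (the 250 bases before to 50 bases after the start) was found for 10377 of the named genes measured on all 6 arrays, and 67.2% of these windows held a GC box on either strand, against 43.8% of all 27305 windows in the table. The share was 66.9% for the genes that rose, 66.0% for those that fell and 67.5% for those not called, and the median C+G share was 65.3%, 65.3% and 64.7%. Among genes changed at least 4-fold the share with a GC box was lower. Of the 111 genes that rose at least 4-fold, 48.6% held a GC box, and of the 109 that fell at least 4-fold, 60.6% did, although of the 16 with a window that fell at least 16-fold 68.8% did. The TATAAA motif of the TATA box (either strand) was found in 16.2% of the windows of the former and 10.1% of the latter, against 6.63% of the windows of measured genes, and CCGGAAG, the letters of an ETS site, in 8.11% and 9.17% against 18.6%. Over all calls the ETS letters were in 14.6% of windows of genes that rose and 15.4% of those that fell, against 20.2% of those not called. TGACGTCA, the cyclic AMP response element bound by CREB, was held by 2.08% of windows of genes that rose and 3.38% of those that fell, against 3.30% of those not called. These are counts of letters in a fixed window and not of occupied sites, and the letters of one motif can overlap those of another.

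The largest falls among genes measured on all 6 arrays were in a membrane protein, a growth factor receptor and a chemokine receptor. SHISA3, an inhibitor of WNT and FGF receptor traffic, read 2.46, 2.78 and 2.71 on the untreated arrays and -4.50, -4.35 and -4.34 at 80 nM, and was 132-fold lower (log2 change -7.05, SE 0.10, limma adjusted p = 4.5e-09). PDGFRA, the alpha receptor of platelet-derived growth factor, read 1.40, 1.19 and 1.19 untreated and -4.96, -5.27 and -5.50 at 80 nM, 90.8-fold lower (log2 change -6.50, SE 0.14, limma adjusted p = 1.6e-08). CCR1, a receptor of inflammatory chemokines, went from 2.06, 1.64 and 1.53 to -4.61, -4.56 and -4.68, 82.2-fold lower (log2 change -6.36, SE 0.14, limma adjusted p = 1.7e-08). In each of the 3 genes every treated array lay far below every untreated array, and the distance was many times the spread within a group. CRABP1, which binds retinoic acid in the cytosol, had levels of 1.65, 1.27 and 0.90 in untreated cells and -5.19, -4.66 and -5.05 after treatment (log2 change -6.24, SE 0.24, limma adjusted p = 3.5e-07), and a second probe of it gave -2.07. KIF1A, the kinesin that carries synaptic vesicle precursors, was among the strongly expressed genes at 3.84, 4.06 and 4.06 untreated and reached -2.29, -2.14 and -2.30 (log2 change -6.23, SE 0.12, limma adjusted p = 1.0e-08). The other genes of this rank were DLK1, an imprinted ligand of the Notch family (-5.91, with -1.67 by a second probe), the transcription cofactor LMO1 (-5.54), carbonic anhydrase CA2 (-5.39), the protein kinase C isoform PRKCH (-5.28) and the flippase subunit TMEM30B (-5.06).

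The largest rise among genes measured on all 6 arrays was in VCAN, which encodes versican, a large proteoglycan of the extracellular matrix. VCAN read -0.28, -0.68 and -0.85 in untreated cells and 3.90, 3.64 and 3.71 at 80 nM, 20.5-fold higher (log2 change 4.36, SE 0.19, limma adjusted p = 6.3e-07). CNDP1, a carnosine dipeptidase, rose from -3.62, -3.55 and -3.46 to 0.75, 0.78 and 0.78 (log2 change 4.31, SE 0.10, limma adjusted p = 2.2e-08). RGCC, a cell cycle regulator induced by p53 and by complement, went from -1.91, -1.70 and -1.85 to 2.19, 2.19 and 2.16 (SE 0.08, limma adjusted p = 1.6e-08), 16-fold higher, with treated arrays close together. JAG1, a Notch ligand, rose from -2.62, -2.35 and -2.66 to 1.19, 1.03 and 1.15, 12.7-fold (log2 change 3.67, SE 0.10, limma adjusted p = 5.0e-08). Next to these stood TECRL (4.21), the long noncoding RNA CEROX1 (3.96), the urotensin peptide gene UTS2B (3.83), FILIP1L (3.67), the transcriptional repressor ZBTB1 (3.66, with 0.57 by a second probe) and the transporter-like MFSD6 (3.65). TECRL, CEROX1 and MFSD6 were dim in untreated cells, with means of -5.42, -4.57 and -5.06.

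**Figure D3:**
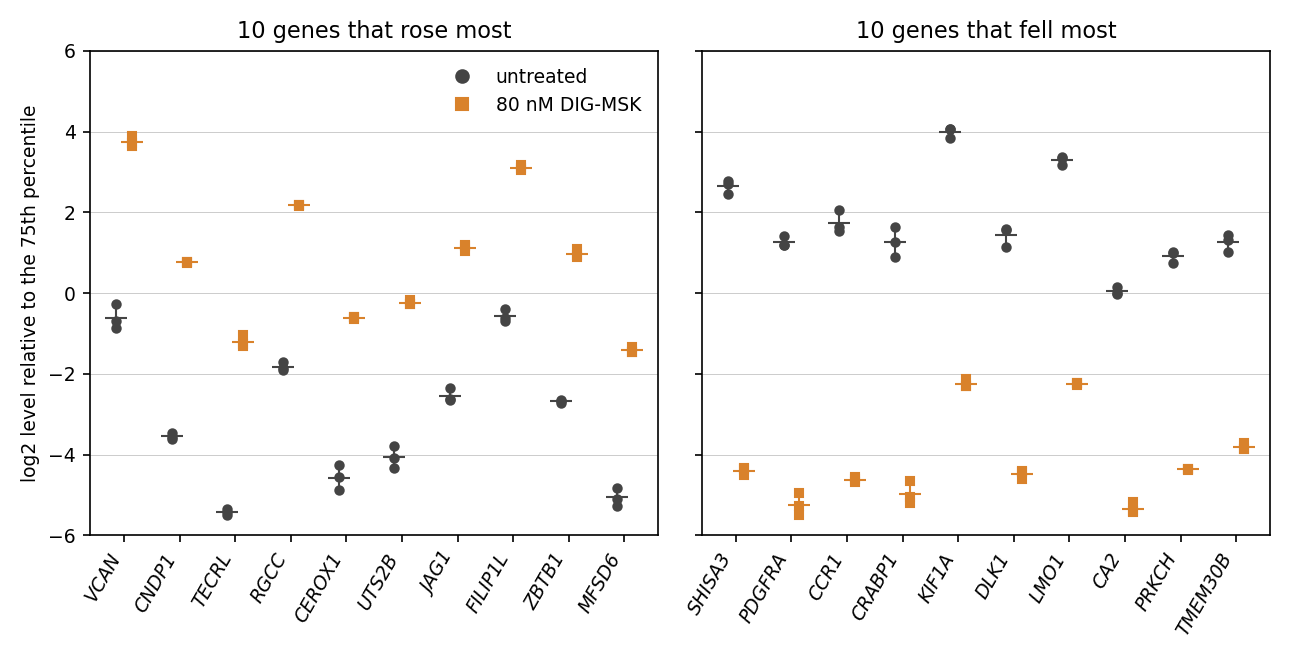
Log2 level relative to the 75th percentile on each of the 3 untreated arrays (circles) and the 3 arrays of 80 nM DIG-MSK (squares), with mean and SD as bars, for the 10 genes that rose most (left) and the 10 that fell most (right) among genes well above background on all 6 arrays. In each of the 20 genes the groups do not overlap.

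The same untreated arrays give the change of these 20 genes at 8 nM, which lay between -0.93 and 0.65. SHISA3 changed by -0.12 at 8 nM and -7.05 at 80 nM, PDGFRA by 0.24 and -6.50, CCR1 by 0.22 and -6.36, and CRABP1 by 0.25 and -6.24. KIF1A lay at the lower end of this range and CNDP1 at the upper. For VCAN the pair was 0.25 and 4.36, and for JAG1 0.31 and 3.67. In the p53 response, described below, CDKN1A changed by 1.82 at 8 nM and 1.90 at 80 nM, BTG2 by 1.86 and 2.22, and FAS by 1.66 and 2.10. Both columns share the untreated arrays, and the 8 nM arrays lay on the slide of the untreated arrays.

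Genes that could no longer be measured at 80 nM, for which only a bound can be given, included transcription factors of embryonic patterning and genes of neurons. ISL1, a LIM homeobox factor of motor neurons, read 1.63, 1.51 and 1.57 untreated and was not well above background at 80 nM, at least 354-fold lower (limma adjusted p = 4.5e-09). A bound is the untreated mean over the mean, per array of 80 nM, of the lowest signal well above background or the probe's own signal, whichever was higher. The bounds were 114-fold for NKX2-1, 110-fold for the imprinted deiodinase DIO3, 109-fold for the WNT agonist RSPO2, 106-fold for VAV3, an activator of small GTPases, and 96-fold for the chemokine receptor CXCR4. Neuronal enolase ENO2 was at least 85.3-fold lower and the collagen chain COL1A2 at least 89.1-fold lower. In the other direction, WLS, the carrier that WNT proteins need for secretion, was not well above background in untreated cells and read -0.80, -0.93 and -0.74 at 80 nM, at least 47-fold higher. Such genes included NDST4, a heparan sulphate sulphotransferase (at least 28.7-fold), SOX5 (9.54-fold) and PHLDA1 (13.5-fold). These genes were picked for the size of their change after their values were seen, except members of the lists.

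HOX genes, which set position along the body axis, fell in many members and rose in none of those tested. Of 38 HOX genes listed, 21 were tested and 15 were measured on all 6 arrays, where 9 fell (60%, against 13.2% of all genes) and 0 rose, with a median log2 change of -0.68, against 0.09 for all genes. HOXD9 read -1.52, -1.47 and -1.44 untreated and -5.45, -5.54 and -5.66 at 80 nM (log2 change -4.07, SE 0.09, limma adjusted p = 1.7e-08). HOXB6 went from 2.08, 1.89 and 1.86 to -0.88, -0.91 and -0.95 (log2 change -2.85, SE 0.09, limma adjusted p = 1.3e-07), and HOXB5 changed by -1.61. In both HOXD9 and HOXB6 the groups were far apart. A further 4 were detected in untreated cells alone, among them HOXD8 (at least 32.1-fold lower) and HOXD3 (at least 16-fold).

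Retinoic acid signalling, which acts on the HOX clusters in development, fell in several of its genes. Of 13 genes of this list measured on all 6 arrays, 6 fell and 1 rose. After CRABP1 the falls included RDH10, which makes retinaldehyde (-1.98), CRABP2 (-1.60, with 0.22 by a second probe), the degrading enzyme CYP26A1 (-1.57) and the receptors RXRA (-1.55) and RARA (-0.70). The enzyme of retinoic acid synthesis ALDH1A2 was not well above background at 80 nM and was at least 27.1-fold lower, and the reductase DHRS3 rose by 1.05. Nuclear receptors as a list had 7 falls and 2 rises of 19 measured (10 and 2 under spike-in scaling), with NR6A1 at -1.41, RORB at -1.18 and, upward, NR2F2 at 2.15 and NR4A2 at 1.16. FOX and SOX factors moved both ways, 7 up and 4 down of 28, or 2 and 6 under spike-in scaling. SOX8 rose from -2.41, -2.45 and -2.50 to 1.04, 1.05 and 1.10, and SOX9, a factor of cartilage and gonad, changed by 1.95. The pluripotency factor SOX2 was at least 15.6-fold lower.

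Growth factors and their receptors changed in both directions. Of 46 receptor tyrosine kinases and ligands measured on all 6 arrays, 16 rose (34.8%) and 8 fell (17.4%), and the median was 0.30, or 0.02 with spike-in scaling, under which 10 rose and 8 fell. MDK, the heparin-binding growth factor midkine, went from 2.16, 1.82 and 1.88 to -2.59, -2.51 and -2.66, 23.3-fold lower (log2 change -4.54, SE 0.14, limma adjusted p = 1.1e-07). FGF18 read 1.19, 1.19 and 1.12 untreated and -2.99, -2.92 and -2.87 at 80 nM (log2 change -4.09, SE 0.07, limma adjusted p = 5.6e-09), and VEGFC, the growth factor of lymphatic vessels, fell by 2.75 on the log2 scale. MET, the receptor of hepatocyte growth factor, was not well above background at 80 nM and was at least 4.16-fold lower. The rises were led by the KIT ligand KITLG (2.25), IGFBP6, which binds insulin-like growth factor (2.08), and FGFR3 (1.87, 1.84 by its second probe).

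In the WNT pathway 11 of 34 genes measured fell (32.4%) and 7 rose (20.6%), with 13 falls and 2 rises under spike-in scaling. The noncanonical ligand WNT11 was at -2.15, the feedback ubiquitin ligase ZNRF3 at -1.58 (its second probe at 0.01) and NKD2 at -1.34, while DVL3, an adaptor of the receptors, rose by 1.39 and FZD1 by 1.20. 5 more were detected in untreated cells alone, with bounds of 6-fold for WNT5A and 9.71-fold for the antagonist DKK2. Genes of TGF-beta and BMP signalling rose more often than they fell, 15 against 7 of 46, with a median of 0.24 that became -0.04 under spike-in scaling, where 6 rose and 8 fell. Noggin (NOG), a secreted antagonist of BMPs, rose from -3.81, -3.92 and -3.99 to -0.78, -0.87 and -0.80 (log2 change 3.09, SE 0.08, limma adjusted p = 3.4e-08), and its ligand BMP7 fell from 1.01, 1.28 and 1.21 to -1.50, -1.50 and -1.48 (log2 change -2.66, SE 0.17, limma adjusted p = 5.3e-06). SMAD9 rose by 1.78 and the SMAD corepressor SKI changed by -1.52. In Notch and Hedgehog signalling, 7 rose and 7 fell of 32 (4 and 7 under spike-in scaling). JAG1 and HEY1 (1.28) rose, and the second ligand JAG2 (-1.84), the Hedgehog effector GLI2 (-1.57) and the Notch coactivator MAML3 (-1.54) fell.

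Genes of the actin cytoskeleton and of serum response factor and YAP formed a group of which many rose. Of 43 measured on all 6 arrays, 17 rose (39.5%, against 17.4% of all genes) and 1 fell, with a median of 0.37. With spike-in scaling the median was 0.09 and 11 rose. ACTA2, smooth muscle actin, read 0.99, 1.12 and 1.03 untreated and 3.79, 3.82 and 3.90 at 80 nM (log2 change 2.79, SE 0.08, limma adjusted p = 5.6e-08). TAGLN, which encodes the actin-binding protein transgelin, went from 2.69, 3.01 and 2.95 to 5.14, 5.20 and 5.26 (log2 change 2.31, SE 0.11, limma adjusted p = 9.8e-07, 2.38 by a second probe), and the focal adhesion protein TGFB1I1 rose by 2.31. The YAP targets CCN1 and CCN2 parted: CCN1 rose by 1.98, and CCN2 was not well above background at 80 nM and was at least 4.28-fold lower.

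Among genes measured on all 6 arrays, collagens and integrins rose more often than they fell, and other matrix genes went both ways. Of 24 collagen genes measured, 10 rose (41.7%) and 2 fell, and under spike-in scaling 7 rose and 3 fell. Over all 28 tested, 11 rose and 5 fell, among the falls COL6A3 (-7.08), which was not measured on all 6 arrays. COL12A1 went from -4.71, -4.78 and -5.46 to -1.75, -1.79 and -1.82 and COL1A1, a chain of type I collagen, from -2.96, -3.14 and -2.93 to -0.80, -0.66 and -0.65. COL3A1 rose by 2.08. The partner chain of COL1A1 in type I collagen, COL1A2, moved the opposite way, from 0.16, -0.59 and -0.65 untreated to not well above background. Integrins and laminins gave 9 rises and 3 falls of 22 (7 and 3 under spike-in scaling), with ITGA10 at 2.54, ITGA7 at 2.45, the vitronectin receptor chain ITGAV at 2.20 and LAMA1 at -1.12. Over all 26 integrins and laminins tested, 9 rose and 7 fell, or 7 and 7 under spike-in scaling. The 4 detected in untreated cells alone, ITGA1 among them, are in this wider count. Proteoglycans and matrix glycoproteins were divided, 11 up and 10 down of 35. Beside VCAN, thrombospondin THBS1 (2.58) and nidogen NID2 (2.15) rose, and fibrillin FBN2 (-4.29), the calcification inhibitor MGP (-3.58) and the glypican GPC3 (-2.71, -5.97 by a second probe) fell. Among proteases and their inhibitors (7 up and 3 down of 26, but 3 up and 5 down under spike-in scaling), stromelysin MMP3 rose by 2.98 and the inhibitor TIMP1 by 1.08, and TIMP3 changed by -1.84.

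Many genes of interferon response and of HLA class I antigen presentation fell. Interferons act through STAT and IRF factors on sensors of viral RNA and on the machinery that loads peptides onto HLA class I. Of 29 interferon-stimulated genes measured on all 6 arrays, 15 fell (51.7%, against 13.2% of all genes) and 2 rose (OAS3, 0.79, and IFIT2, 0.66, whose second probe gave -0.07, both short of the limits under spike-in scaling), with a median of -0.65. With normexp background correction the median was -0.37, and over all 33 tested 13 fell in place of 18. IFIH1, the RNA sensor MDA5, read -0.65, -1.25 and -1.19 untreated and -5.27, -5.81 and -5.29 at 80 nM, 21.5-fold lower (log2 change -4.43, SE 0.21, limma adjusted p = 1.1e-06). IRF9, a factor that interferon activates, fell by 2.17 on the log2 scale. MX1, an antiviral GTPase, was not well above background at 80 nM and was at least 30.8-fold lower. In IFIH1 the groups did not overlap.

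On the side of antigen presentation, 12 of 18 measured genes fell (66.7%) and 0 rose, with a median of -0.77. The immunoproteasome subunit PSMB9 read 3.37, 1.87 and 2.20 untreated and -0.35, -0.29 and -0.21 at 80 nM (log2 change -2.76, SE 0.39, limma adjusted p = 4.6e-04), with untreated replicate 1 above the other untreated arrays and no overlap between groups, and PSMB8, its companion, was at least 14.8-fold lower. HLA-B went from 4.49, 3.85 and 4.03 to 2.31, 2.41 and 2.44 (log2 change -1.74, SE 0.18, limma adjusted p = 8.7e-05), HLA-C changed by -1.36 and the peptide transporter TAP1 by -1.72. NLRC5, the transactivator of class I genes, changed by -0.88. HLA genes resemble each other closely, and probes for them can cross-hybridise, so their values are not independent. In the constitutive proteasome, outside PSMB9, PSMB10 and the activators PSME1 and PSME2, 0 of the genes measured on all 6 arrays fell, and PSMD10 and PSME3 rose. Under spike-in scaling neither of these rose, and PSMA4, PSMB1, PSMB3, PSMB7 and PSMD4 fell too, 9 of 41 in all.

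Cytokine receptors were divided, with 9 up and 9 down of 38 measured, or 4 and 9 under spike-in scaling. After CCR1, the decoy TRAIL receptor TNFRSF10D (-4.03) and IL15RA (-3.42) fell most, and IL20RB (3.15) and the interferon lambda receptor IFNLR1 (2.46) rose most. Of 18 NF-kB factors and target cytokines measured on all 6 arrays, 4 rose (22.2%, against 17.4% of all genes) and 0 fell. Over all 20 tested, 4 rose and 2 fell, and the falls, CXCL10 and ICAM1 (-3.61), were detected in untreated cells alone. The rises were in BIRC3 (2.31), leukemia inhibitory factor LIF (1.93) and the serum amyloid genes SAA1 (1.84) and SAA2 (1.60), which share much of their sequence, while CXCL10, also a target of interferon, was at least 13.9-fold lower.

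Direct targets of p53, the factor that halts the cycle or starts apoptosis after DNA damage, rose in many members. Of 36 measured, all on the 6 arrays, 20 rose (55.6%, against 17.4% of all genes) and 1 fell, with a median log2 change of 0.69, or 0.41 with spike-in scaling, under which 11 rose. BTG2, an antiproliferative cofactor, read 1.69, 2.02 and 1.86 untreated and 4.08, 4.08 and 4.07 at 80 nM (log2 change 2.22, SE 0.10, limma adjusted p = 8.3e-07). The death receptor FAS went from -2.03, -2.10 and -2.15 to 0.01, -0.01 and 0.01 (log2 change 2.10, SE 0.09, limma adjusted p = 7.0e-07), and its other 2 probes gave 2.12 and 2.42. CDKN1A, the CDK inhibitor p21, went from -2.38, -2.33 and -2.21 to -0.42, -0.41 and -0.39 (log2 change 1.90, SE 0.14, limma adjusted p = 1.2e-05). In these 3 genes the treated arrays lay close together and well above all untreated arrays. The cytokine GDF15 rose by 1.60 and SESN1 by 1.33. PMAIP1, which encodes the proapoptotic NOXA, fell from -2.89, -3.96 and -3.81 to -4.78, -4.67 and -4.82. MDM2, the ubiquitin ligase of p53, was at 0.25 and not called, with -0.03 under spike-in scaling, and BAX was at -0.37, also not called.

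Cell cycle genes outside this response changed in part. In DNA replication 4 of 54 genes rose and 4 fell, and in mitosis 4 and 6 of 55, shares of 7.41% and 7.41%, and 7.27% and 10.9%, all below those of all genes. Under spike-in scaling 0 replication genes rose and 9 fell, and 1 and 13 of the mitotic genes, a share of falls in mitosis that is not below that of all genes. CLSPN, which encodes the checkpoint mediator claspin, went from -0.46, -0.91 and -0.75 to -2.41, -2.29 and -2.54. Other falls were in MCM5 (-0.93), in the inner centromere protein INCENP (-1.63) and in the spindle checkpoint protein MAD1L1 (-1.16), and, all but CDK1 lost under spike-in scaling, rises in RRM2 (1.03), PCNA (0.80), ORC6 (0.80) and CDK1 (1.13). The proliferation marker MKI67 changed by -0.81, but its other probes gave -0.22 and 0.76. Of 28 G1 regulators 7 rose and 4 fell, or 5 and 9 under spike-in scaling. Cyclin CCND3 (1.58), CDK2 (1.14) and CCNE2 (1.07) rose with CDKN1A, and the inhibitors CDKN2A (-1.69) and CDKN1B (-1.34) fell. CDK6, which was well above background on 1 of the 3 arrays of 80 nM, read -2.39, -3.04 and -2.68 untreated and -8.14, -6.30 and -7.79 treated.

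DNA repair showed single changes. Homologous recombination and Fanconi genes gave 4 rises and 3 falls of 38 (1 and 9 under spike-in scaling), with BARD1 at 0.98 and the nuclease MRE11 at -1.29. In excision and mismatch repair 7 of 36 rose and 3 fell, a balance that spike-in scaling turned to 1 up and 5 down. The damage recognition factors of nucleotide excision repair DDB2 (0.70) and XPC (0.63), both p53 targets, rose, as did ERCC2 (0.89), of which ERCC2 alone passed the limits under spike-in scaling, and PARP1 was at -1.50 by its main probe and 0.29 by the other. In the BCL2 family, 2 of 15 rose and 2 fell, or 2 and 5 under spike-in scaling. BMF, a BH3-only protein, went from -4.64, -4.39 and -4.45 to -2.38, -2.57 and -2.52, and BCL2L11 gave 1.42, -1.47 and -0.24 by its 3 probes and so has no settled direction. HRK changed by -0.94, and BCL2 (0.47), MCL1 (0.51) and BAK1 (0.17) were not called. Among inhibitors of apoptosis BIRC3 rose from -6.14 ± 0.04 to -3.83 ± 0.15 (mean ± SD, n = 3) and BIRC2 by 1.76, and XIAP fell.

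Replication-dependent histone genes, which are transcribed in S phase and lack a poly(A) tail, fell in most of the members measured. The labelling protocol is not settled, and how well it read transcripts without such a tail was not tested. Of 59 measured on all 6 arrays, 39 fell (66.1%) and 2 rose, with a median of -1.12. H3C15 read 4.59, 4.17 and 4.49 untreated and 0.92, 1.57 and 0.97 at 80 nM (log2 change -3.26, SE 0.19, limma adjusted p = 2.8e-06), and H4C11 went from 3.39, 2.98 and 3.36 to 1.05, 1.39 and 1.21 (log2 change -2.03, SE 0.15, limma adjusted p = 1.4e-05). H2BC12, of which a polyadenylated form is known, rose from 3.73, 3.48 and 3.42 to 4.29, 4.41 and 4.43, and H2BC9 rose by 0.61, neither past the limits under spike-in scaling. Under spike-in scaling 0 rose and 39 fell. Histone genes of a family are nearly identical in their coding parts, so a probe can read several of them, and the 59 values are not independent. H2BC21 gave -0.76 and 2.40 by its 2 probes.

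Many genes fell in a list of enzymes that write and erase histone and DNA marks, which also holds members of chromatin remodellers. Of 73 measured, 26 fell (35.6%) and 3 rose (4.11%), with a median of -0.26, or -0.54 with spike-in scaling, under which 33 fell and 1 rose. The demethylase KDM4B went from 2.73, 2.72 and 2.61 to 0.64, 0.67 and 0.65 (log2 change -2.03, SE 0.07, limma adjusted p = 1.8e-07, -2.74 by the second probe). ARID1B, a subunit of the BAF remodeller, changed by -1.90, the H3K36 methyltransferase NSD1 by -1.36 and the acetyltransferase CREBBP by -1.19. KAT2B (1.46), HDAC6 (0.64, with -0.21 by its second probe) and HDAC1 (0.59) rose, the last 2 not under spike-in scaling. The general transcription machinery, RNA polymerase II with Mediator and the initiation factors, gave 10 falls and 5 rises of 81, or 19 and 1 under spike-in scaling. TAF3 (-1.46) and GTF2A1 (-1.39) fell most and MED23 (1.22) rose most. ZNF genes, the large family of zinc finger factors, gave 73 falls (18.1%) and 39 rises (9.68%) of 403, and under spike-in scaling 113 fell and 9 rose.

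Among SP, KLF and EGR factors, which bind GC boxes or related sequences, SP1 and SP3 were not called and some others were. Of 22 such genes measured on all 6 arrays, 2 rose (9.09%) and 3 fell (13.6%), against 17.4% and 13.2% of all genes. Their median was -0.05, and under spike-in scaling 1 rose and 5 fell. SP1 read 0.86, 0.93 and 0.67 untreated and 0.74, 0.59 and 0.64 at 80 nM (log2 change -0.16, SE 0.12, limma adjusted p = 0.276), and SP3 read 0.80, 0.85 and 0.71 and 0.67, 0.77 and 0.91 (log2 change 0.00, SE 0.10, limma adjusted p = 0.997). Neither was called, and their arrays overlapped. KLF2 (1.09) and, except under spike-in scaling, KLF16 (0.65) rose, and SP6 (-1.08), SP8 (-1.06) and EGR1 (-0.85) fell. SP5 (at least 2.92-fold lower) and EGR2 (at least 5.2-fold) were detected in untreated cells alone. MYC, whose promoter carries GC-rich elements, went from 3.32, 3.41 and 3.28 to 2.30, 2.18 and 2.19 (log2 change -1.11, SE 0.07, limma adjusted p = 5.0e-06). In its network the antagonists MXI1 (-1.65) and MNT (-1.20) fell too, MLXIPL rose (0.93), and MAX (0.24) was not called and turned to -0.04 under spike-in scaling. TERT, the catalytic subunit of telomerase, went from 1.53, 1.37 and 1.34 to -0.16, -0.20 and -0.19 (log2 change -1.60, SE 0.13, limma adjusted p = 2.0e-05), and of the 16 telomere genes measured, 4 fell and 2 rose, with POT1 at -1.62 and STN1 at 1.02. Immediate early genes gave 8 rises and 3 falls of 22, with FOS at 1.11, and 5 and 5 under spike-in scaling. EGR2 and CCN2, described above, are outside this count.

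Of the genes that the study followed by chromatin immunoprecipitation or quantitative PCR, some of which its authors picked among genes that changed on these arrays, 15 were tested here. CDKN1A rose, CRABP1, MDK and XIAP fell, and KCNMA1, a calcium-activated potassium channel, read -1.52, -1.31 and -1.39 untreated and was not well above background at 80 nM, at least 45.1-fold lower. XIAP, the caspase inhibitor, read 1.34, 1.34 and 1.44 untreated and 0.61, 0.57 and 0.69 at 80 nM, 1.68-fold lower (log2 change -0.75, SE 0.09, limma adjusted p = 1.6e-04), and its second probe gave -0.20. Genes not called were SP1, SP3, TFDP1 (0.38), CCNB1 (-0.11), GTSE1 (-0.47), E2F1 (-0.42), BRCC3 (-0.21) and the reference gene GAPDH, which read 7.11, 6.95 and 7.02 and 6.98, 6.98 and 7.01 (log2 change -0.03, SE 0.07, limma adjusted p = 0.697). Under spike-in scaling GTSE1 (-0.75) and E2F1 (-0.70) passed the limits downward.

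Cholesterol synthesis, which SREBF2 drives when sterols are low, rose in several of its steps. Of 36 genes of sterol and fatty acid synthesis measured on all 6 arrays, 12 rose (33.3%) and 1 fell, with a median of 0.40. MSMO1, a sterol demethylase, went from -4.39, -3.92 and -4.20 to -2.06, -2.26 and -2.22 (log2 change 1.99, SE 0.16, limma adjusted p = 1.7e-05), IDI1, the isopentenyl diphosphate isomerase, from 1.18, 1.10 and 0.92 to 2.51, 2.44 and 2.56, and HMGCS1, an early step, rose by 1.37. SREBF2 rose by 0.94 and SREBF1, the regulator of fatty acid synthesis, fell by 0.87 by its main probe and gave 0.44 by the other. Under spike-in scaling 5 rose and 5 fell, and the median was 0.12.

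Many genes of the response to hypoxia, which hypoxia-inducible factor drives, fell. Of 17 genes of this list measured, 9 fell (52.9%) and 1 rose, with a median of -0.65. The other 7 were not called, among them CA12 (0.51), ERO1A (0.32), P4HA2 (0.17) and P4HA1 (0.03). NDRG1, which was not measured on all 6 arrays, rose by 1.37. INSIG2, which also holds sterol regulators in the endoplasmic reticulum, went from 0.34, 0.02 and 0.05 to -2.91, -3.06 and -3.03 (log2 change -3.14, SE 0.13, limma adjusted p = 4.1e-07). ANKRD37 changed by -2.38, and BNIP3, which directs the removal of mitochondria, went from 4.03, 3.82 and 3.88 to 2.22, 2.06 and 2.13. The angiogenic factor VEGFA was at -1.54 by the main probe and 0.01 by another. HIF1A fell by 0.65 (-0.93 by its second probe), whereas EPAS1, the alpha subunit of HIF-2, rose from -5.10, -5.23 and -5.13 to -2.52, -2.39 and -2.46 (log2 change 2.70, SE 0.11, limma adjusted p = 4.7e-07). In glycolysis 5 of 22 fell and 1 rose. The falls included hexokinase HK2 (-1.44), the glucose transporter SLC2A1 (-1.25) and the kinase PDK1 (-1.80). LDHA (-0.39), PGK1 (-0.05) and ENO1 (-0.03) were not called.

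Among lysosomal and autophagy genes, 19 of 55 rose (34.5%) against 5 that fell, with a median of 0.41. MAP1LC3A, a protein of the autophagosome membrane, went from -2.71, -2.44 and -2.38 to -0.56, -0.56 and -0.46 (log2 change 1.98, SE 0.12, limma adjusted p = 3.3e-06), the protease CTSK rose by 1.59 and WIPI1 by 1.09. The regulators of lysosomal genes MITF (-1.45) and TFEB (-0.95) were among the falls. With spike-in scaling 8 rose and 7 fell, with a median of 0.13. Solute carriers, the membrane transporters of small molecules, rose in 56 and fell in 19 of 213 measured, but spike-in scaling turned this balance, with 23 up and 36 down. The iron exporter ferroportin, SLC40A1, went from -2.82, -2.65 and -2.72 to 0.23, 0.32 and 0.30 (log2 change 3.02, SE 0.10, limma adjusted p = 1.5e-07), and the amino acid transporter chain SLC7A7 rose by 2.61.

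In the stress responses few rises held under spike-in scaling. Of 31 genes of the unfolded protein response, 8 rose (25.8%, against 17.4% of all genes) and 2 fell (6.45%). The rises included PDIA4 (0.81) and the chaperone HSPA5 (0.61), and under spike-in scaling 0 rose and 2 fell. Among the falls, CANX was at -1.17 by its main probe and 0.83 by the other. Of 27 cytosolic chaperones 5 rose (18.5%) and 0 fell (2 and 1 under spike-in scaling), among the rises HSPB1 (1.53). NRF2 targets gave 3 rises and 2 falls of 18 (0 and 3 under spike-in scaling), with heme oxygenase HMOX1 at -1.46.

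Of the basic machinery of protein synthesis and respiration few genes were called, and the number that fell was higher under spike-in scaling outside the cytosolic ribosome. Of 86 cytosolic ribosomal protein genes 2 rose and 0 fell, with a median of 0.17, or -0.11 under spike-in scaling, where 0 rose and 0 fell. Ribosome biogenesis gave 3 falls and 0 rises of 58, translation factors and tRNA synthetases 3 and 1 of 62, the spliceosome 3 and 4 of 52, and mitochondrial ribosomal proteins 6 and 2 of 77. Under spike-in scaling the falls were 10, 8, 10 and 16 in these lists and the rises 0, 0, 1 and 1. Subunits of oxidative phosphorylation gave 3 falls and 2 rises of 78, with a median of -0.20, but 28 fell under spike-in scaling. Of 14 reference genes 1 rose, the transferrin receptor TFRC (0.85, or 0.57 and not called under spike-in scaling).

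**Figure D4:**
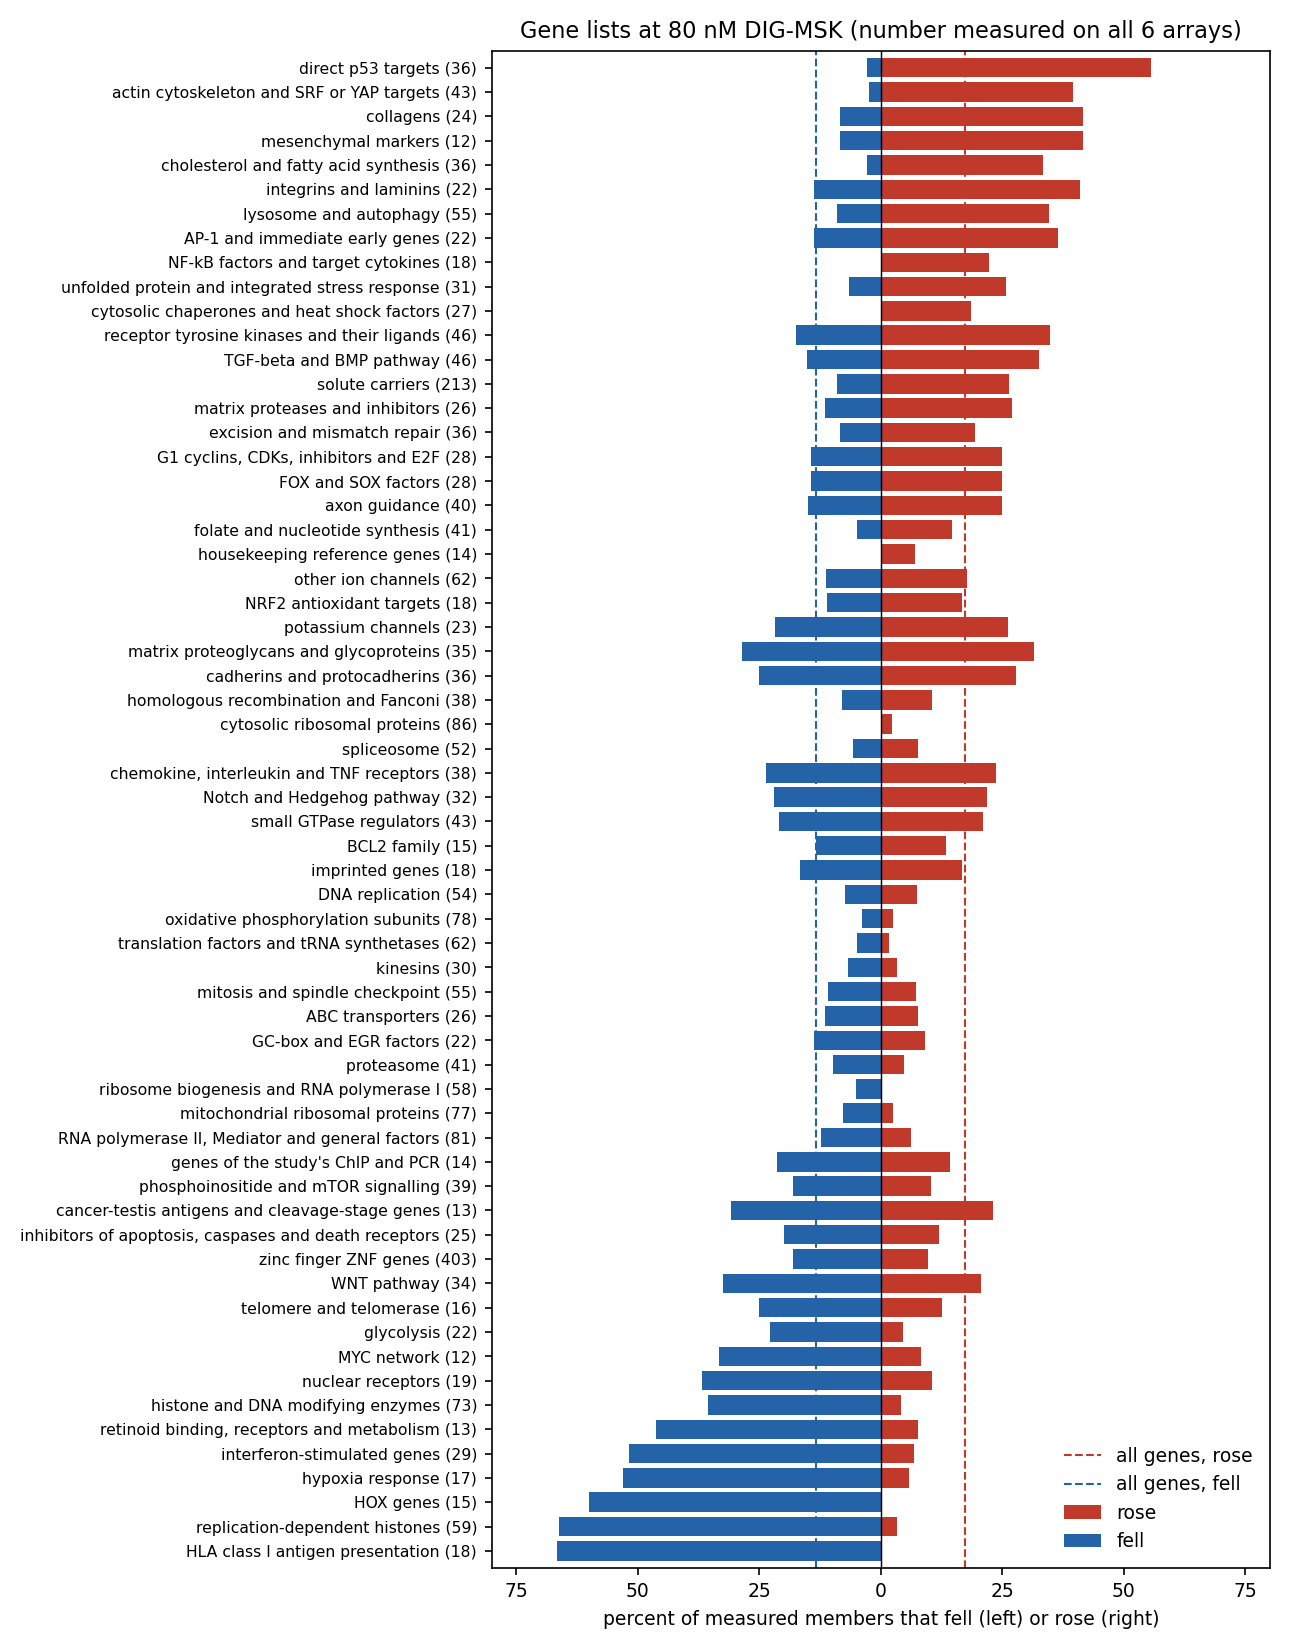
Percent of the members of each gene list that fell (blue, to the left) or rose (red, to the right) at 80 nM DIG-MSK, over members well above background on all 6 arrays, for lists with at least 12 such members (number in parentheses), with dashed lines at the shares of all genes, 17.4% up and 13.2% down. HLA class I, histone and HOX genes lie at the falling end and p53 targets at the rising end.

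Several genes of germ cells and of the surface of neurons were detected in untreated cells alone. Of 24 cancer-testis and cleavage-stage genes tested, 11 were detected in untreated cells alone, most of them PRAMEF genes, which are close copies of each other that a probe may not tell apart, with bounds up to 45.4-fold in PRAMEF4. Of the 13 measured on all 6 arrays, 4 fell and 3 rose, with TRIM49 at -3.59 and MAGEB2 at 1.26. Synaptic adhesion genes gave 3 rises and 1 fall of 6, and 5 were detected in untreated cells alone, with NCAM2 upward at 2.88. Potassium channels gave 6 rises and 5 falls of 23 (1 and 7 under spike-in scaling), with 8 in untreated cells alone and 2 at 80 nM alone, and other ion channels 11 and 7 of 62 (6 and 9). Cadherins and protocadherins gave 10 and 9 of 36 (3 and 9 under spike-in scaling), with N-cadherin CDH2 at -2.33 (-2.65 by a second probe). Axon guidance genes gave 10 and 6 of 40 (7 and 9), with the ephrin receptors EPHA3 (2.97) and EPHA5 (2.35) upward. Imprinted genes gave 3 and 3 of 18 (1 and 5): PLAGL1 rose by 2.08, and DLK1 fell.

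Intracellular signalling gave mixed counts. Phosphoinositide and mTOR genes fell in 7 and rose in 4 of 39 (12 and 2 under spike-in scaling), with the mTOR complex subunit RPTOR at -1.37 and the catalytic subunit PIK3CA at -1.13. Regulators of small GTPases gave 9 rises and 9 falls of 43 (2 and 9 under spike-in scaling), with ARHGAP22 at -3.90 and RASGRP1 at 1.28. ABC transporters (2 up and 3 down of 26), kinesins (1 and 2 of 30) and folate and nucleotide synthesis (6 and 2 of 41) changed in few members, among them the cholesterol exporter ABCA1 (1.31). Under spike-in scaling these 3 lists gave 2 rises and 8 falls, 0 and 6, and 1 and 6.

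**Figure D5:**
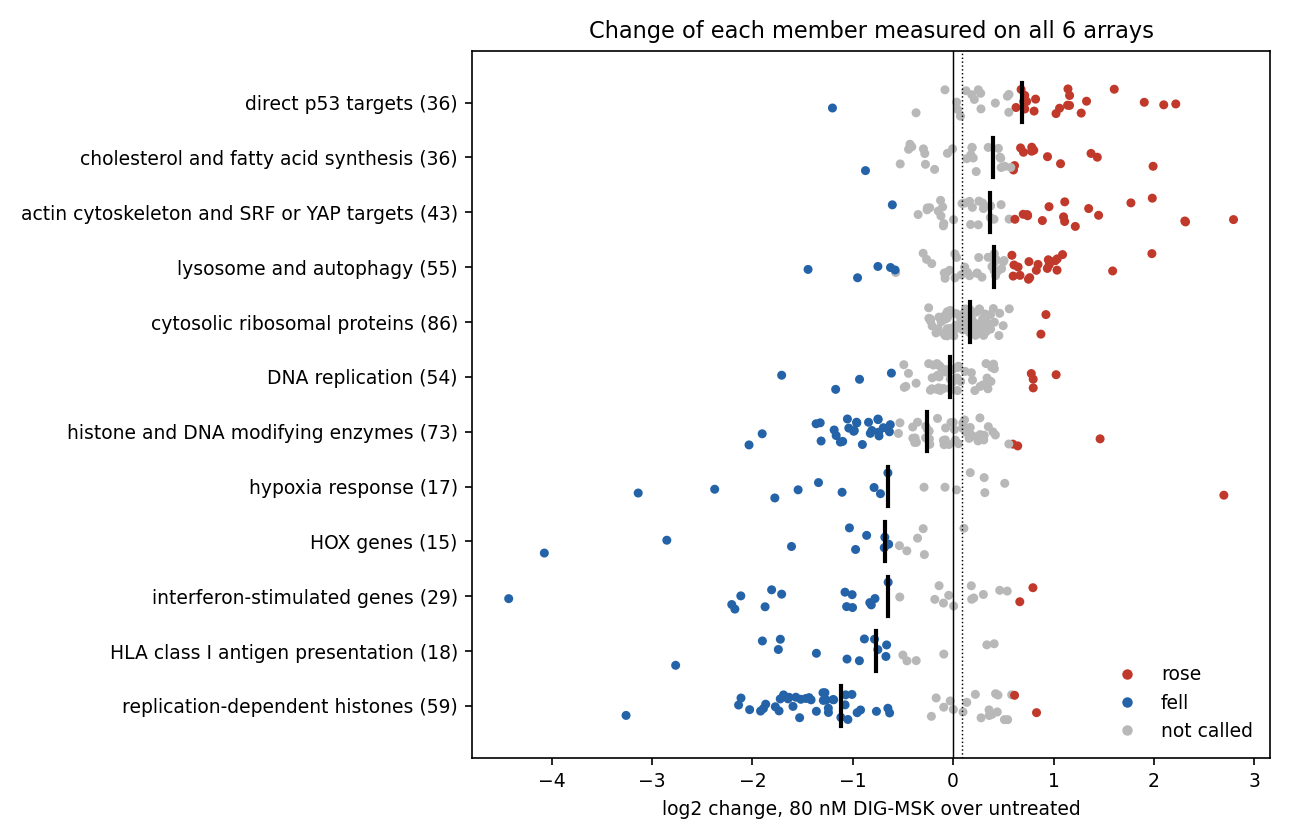
Log2 change (80 nM DIG-MSK over untreated) of each member measured on all 6 arrays in 12 gene lists, with genes that rose in red, fell in blue and not called in grey, a black bar at the median of the list and a dotted line at the median of all genes, 0.09. Histone, HLA class I and HOX genes spread to the left, p53 targets to the right, and ribosomal protein genes stay near the dotted line.

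Markers of cell identity moved in part. Of 16 markers of ovarian carcinoma and epithelium 10 were tested. Keratins KRT7, KRT8 and KRT18 had means between 0.19 and 2.30 in untreated cells and were not called, CLDN4 rose by 1.04 and EPCAM fell by 0.93, while CDH1, MUC16, MSLN, WT1, CLDN3 and PGR did not pass the filter and PAX8 was dim, at -5.88 and -5.74. Vimentin, VIM, was among the strongest signals, at 7.56 untreated and 7.96 at 80 nM. Of 12 mesenchymal markers measured on all 6 arrays, 5 rose, ACTA2, COL1A1, COL3A1, SNAI2 (1.80) and S100A4 (0.97), and 1 fell, CDH2. Over all 14 tested, 5 rose and 3 fell, and 2 were detected in untreated cells alone, COL1A2 (at least 89.1-fold lower) among them. Leukocyte markers were dim: 6 of 12 were tested, with PTPRC at -4.17 and -4.37, and the 1 that rose, CD68 (1.25), encodes a lysosomal protein. Of 7 endothelial markers 1 was tested, and of 7 hepatocyte and yolk-sac markers 4 were.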

How the data were processed

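Total RNA of A2780 cells was hybridised to Agilent human expression arrays with a single dye (Cy3), 3 arrays for each of untreated, 8 nM and 80 nM DIG-MSK. The labels name a Fair Play III labelling protocol and the study's methods a Low Input Quick Amp kit, and which was used was not settled here. The authors extracted spot intensities with Agilent Feature Extraction 10.7.3.1, and the deposited processed intensity is background-subtracted. A table of log2 values of the same arrays was deposited too, centred so that all columns have nearly the same median, and it served as an alternative.

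Levels were log2 processed intensity minus the 75th percentile over non-control probes of the array, without control spots and outlier spots. A probe was kept where all 3 arrays of either group read it well above background, 26495 in all, and the probe with the highest mean over 9 arrays stood for a gene, giving 21860 genes, of which 4 lacked a value on an array and were fitted without it. Symbols were updated through RefSeq accessions, which 27245 of 42405 probes carried. All 9 arrays entered a linear model in limma 3.58.1 (R 4.3.3) with moderated statistics, and p-values of 80 nM against untreated were adjusted by Benjamini-Hochberg over all 21860 genes. Replicates are called biological in the methods, their number limits the precision, and 0 spots of gene probes were saturated. Correlations over genes were 0.994 to 0.996 within the 2 groups and 0.943 to 0.95 between them.

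The 67 gene lists and the genes named were chosen with earlier results of these data known. Named are the 10 largest rises and falls, up to 3 of each per list, members of lists of under 20 genes, genes of the study's immunoprecipitation and PCR, and factors a sentence needs, while others were chosen after their values were seen. Lists were described by counts and medians, with no test of a list. Alternatives were other background correction, scaling, filters, probe choice, samples in the fit, thresholds, a replicate block and leaving out each array. Some genes are not reported here.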

Additional observations from a re-analysis of the deposited data

How the results depend on the processing

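With normexp background correction and quantile normalization 4735 genes were called in place of 7519 and 2273 rose in place of 4046. With a fold limit of 2, 3724 were called, of which 1804 rose and 1920 fell. Scaling to the spike-in probes left 1816 that rose and 4975 that fell. Leaving out each array in turn gave 7060 to 7694 calls, 3851 to 4098 up and 3209 to 3596 down. Of the calls, 46.2% were downward as reported, 52.0% with normexp, 52.1% with scaling to the median and 49.9% in the authors' log2 values. The replicate block gave 7435 calls, and as deviations of arrays with the same number correlated at -0.004, -0.089 and -0.007, the numbers do not pair the samples. Of 408 genes followed over 19 alternatives (7744 values), 7510 kept direction and side of the adjusted p limit, 174 lost it (68 under spike-in scaling), 52 gained it and 8 reversed. Reversed were FOLR1 (-0.028), MAX (-0.0356) and MLX (-0.048) under spike-in scaling, BCL2L11 (-0.10), MAX (-0.0061), MXD1 (-0.61) and YWHAZ (-0.28) with the mean of a gene's probes, and RPLP0 (-0.0040) in the authors' values. PEG3 and IFIT2 lost the adjusted p limit without single arrays. HLA class I falls went from 13 to 10 without untreated replicate 1, and p53 target rises stayed at 20 to 21 over all left-out arrays. Slide 1 held the untreated and slide 2 the 80 nM arrays, so a fit with slide as a term could not be made, and dim genes carry the least signal over background.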

Other observations

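Probes of a gene did not always move together. Of 3385 symbols with several probes, 1848 had at least 1 probe called, 528 had all probes called in the same direction and 70 had probes called in opposite directions. MBD2, a reader of methylated DNA, gave -4.65 and 0.61 by its probes, KANK1, a regulator of actin at focal adhesions, gave -3.17 and 1.88, and SLITRK6, a neuronal adhesion protein, gave -3.81 and 0.89. Probes of 1 gene can lie in different transcripts, and where they lie was not analysed here.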
